A study of Mus musculus with 6 samples.

Results

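The 43 genes described here make the proteins that copy DNA in S phase. They were listed by name for their known function and were grouped into 8 steps: origin recognition and licensing (10 genes), helicase activation (6), the sliding clamp and its loader (6), polymerases and primase (6), single-strand binding and flap removal (4), nucleotide supply (5), the fork checkpoint and histone mRNA (2), and chromatin assembly with DNA methylation (4). All 43 were found among the 24062 genes of the count tables, and each had at least 10 counts in 1 or both libraries of every comparison. The cells were RAW264.7, an established mouse macrophage line that divides in culture. M0 macrophages received no polarizing agent and no irradiation. Over 24 h M1 macrophages were given 100 ng/mL LPS plus 20 ng/mL IFN-γ, and M2 macrophages were given 20 ng/mL IL-4. The names RM0, RM1 and RM2 stand for cells of these 3 states that were exposed to 10 Gy of gamma rays and harvested 24 h later. Each condition had 1 library, made from RNA pooled over 5 wells, so that a difference between 2 libraries has no replicate check. The sources used here do not give the time for which the non-irradiated cells were kept after polarization, so irradiation and time in culture cannot be told apart. Bone marrow is given as the source in the labels, whereas the culture protocol names the cell line. All 10 macrophage markers examined were measured in every library, and Lyz2 was the most abundant of them with 199329 to 580239 counts. The B cell markers Ms4a1 and Pax5 and the T cell markers Cd3e, Cd3g and Cd8a had 0 counts in all 6 libraries. Total counts were 18246280 (M0), 18660435 (RM0), 18472101 (M1), 18870516 (RM1), 17894937 (M2) and 18154365 (RM2).

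Replication begins at origins, where the origin recognition complex, Cdc6 and Cdt1 load the ring-shaped Mcm helicase on DNA in G1 phase, a step called licensing. In S phase the helicase is switched on by Cdc45 and the GINS complex, after which primase, polymerases, the PCNA clamp and its loader copy both strands, while ribonucleotide reductase and thymidylate enzymes supply the nucleotides. Many of these genes are transcribed by E2F factors at the entry to S phase. After DNA damage, p53 and its target Cdkn1a, an inhibitor of cyclin-dependent kinases, hold back E2F. In bulk RNA a smaller fraction of cells in S phase and less mRNA in each such cell cannot be told apart.

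The 43 genes together held 0.158% of all counts in M0 (95% Clopper-Pearson interval 0.156% to 0.160%), 0.11% in RM0, 0.0733% in M1, 0.0666% in RM1, 0.17% in M2 and 0.119% in RM2. These intervals cover counting error only. With libraries scaled by the TMM method of edgeR, which sets the typical gene to no change, the summed level was 1454 scaled CPM (counts per library, set to a common depth) in M0 against 1044 in RM0, 915 in M1 against 754 in RM1, and 1501 in M2 against 1085 in RM2. Each irradiated library was below its non-irradiated counterpart, and the M1 library lay below both RM0 and RM2. The TMM factor was 1.087 (M0), 1.05 (RM0), 0.8004 (M1), 0.8836 (RM1), 1.134 (M2) and 1.093 (RM2). When libraries were scaled by their totals instead, the median of all genes shifted by -0.436 (log2) in M1 against M0, by -0.247 in RM1 against RM0 and by 0.141 in RM1 against M1, so comparisons that set an M1 library against an M0 library are read relative to this shift.

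**Figure D1:**
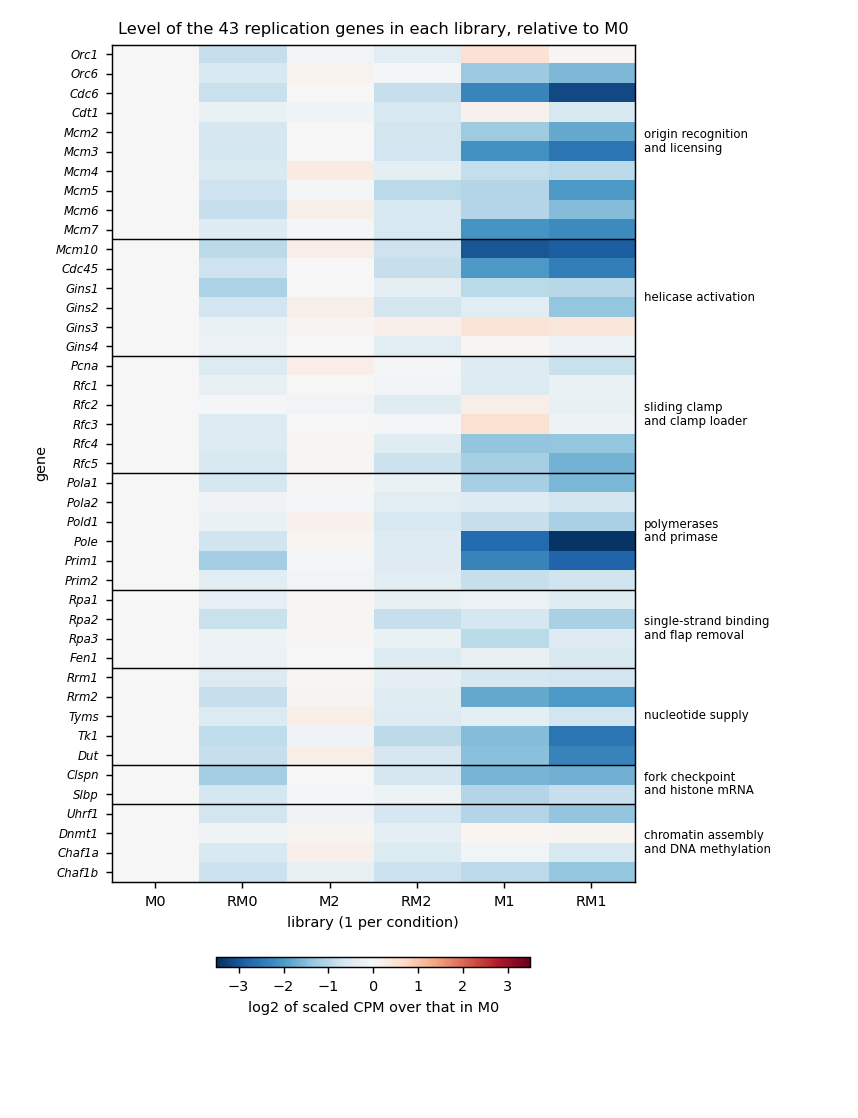
Heat map of the 43 genes (rows, grouped by step) in the 6 libraries (columns, 1 per condition), colored by the log2 ratio of the scaled CPM to that in M0, with blue for lower and red for higher. The RM0 and RM2 columns are pale blue over nearly all rows, the M2 column is close to white, and the M1 and RM1 columns hold the darkest cells, among them Mcm10, Pole and Cdc6.

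The first question was how the replication genes differed 24 h after 10 Gy in each activation state. All 43 genes were lower in RM0 than in M0, against 50.2% of the 11688 genes measured in that pair. In RM2 against M2 42 were lower (50.4% of all genes), Gins3 being the exception, and in RM1 against M1 36 were lower (51.3% of all genes). The median log2 fold change of the 43 was -0.56 in M0, -0.48 in M2 and -0.35 in M1 macrophages, where the median of all measured genes was between -0.012 and -0.00084. These are modest differences: only Prim1, Clspn and Gins1 in RM0 were at least 2-fold lower (3 of 43, 0.821% of all genes), and none of the 43 was in RM1 (2.25%) or RM2 (0.932%). At a 1.5-fold threshold 21 genes were lower in RM0 (3.47% of all genes), 16 in RM2 (3.85%) and 8 in RM1 (7.5%). Counting error was judged by the exact 95% interval of each log2 fold change, which lay wholly below 0 for 38 genes in RM0 (14.8% of all genes), 35 in RM2 (19.5%) and 22 in RM1 (30.4%). In RM1 it lay wholly above 0 for 2 genes, Rfc1 and Rpa3 (26.8% of all genes). In all 3 states together 35 of the 43 genes were lower, against 19.6% of the 11174 genes measured in all 3, and 18 had intervals below 0 in each state (3.37%).

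**Figure D2:**
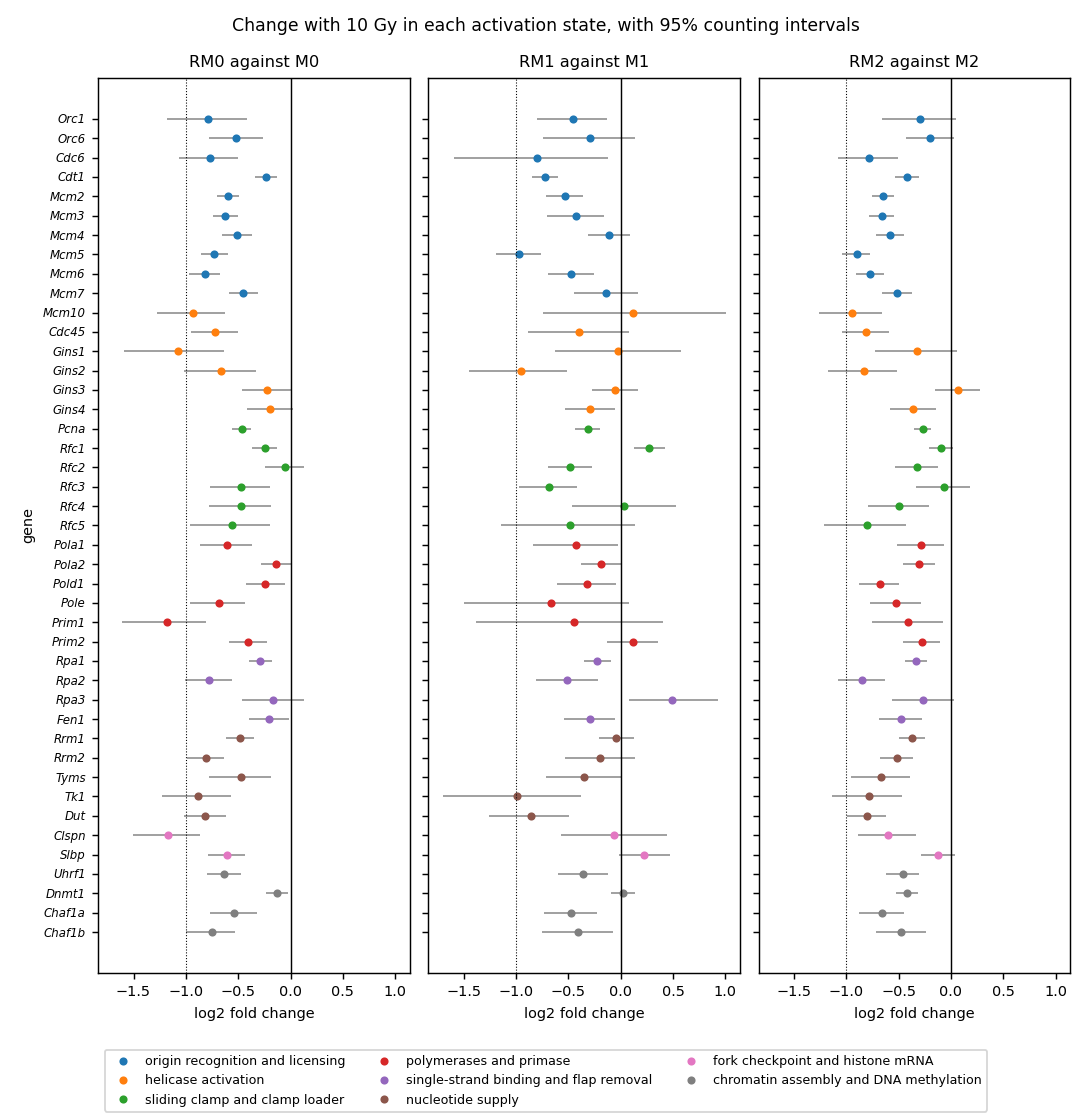
Log2 fold change with 10 Gy of each of the 43 genes (points, colored by step) in M0, M1 and M2 macrophages, with lines for the exact 95% counting interval, a solid line at 0 and a dotted line at a 2-fold decrease. In the left panel all points lie left of 0, in the right panel all but Gins3, and in the middle panel 7 points lie to the right.

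An effect of irradiation shared by the states was then tested with edgeR's quasi-likelihood test over 11574 genes, in a model with activation state and irradiation in which the 3 states stand in for replicates and 2 residual degrees of freedom remain. Of the 43 genes 6 fell at a Benjamini-Hochberg adjusted p under 0.05 and 0 rose, against 0.13% (15) of all genes that fell and 0.346% (40) that rose. The 6 were Mcm5, Dut, Mcm6, Mcm2, Rpa2 and Mcm3, 4 of which are subunits of the replicative helicase. Together with the mitotic genes Cdc20 and Ube2c they made up 8 of the 15 genes that fell. All 43 estimates were below 0 (52.5% of all genes), and 35 had an unadjusted p under 0.05 with a lower estimate (6.87% of all genes). How many genes passed depended on the M1 libraries and on the model. Without M1 and RM1 32 of the 43 passed, when the number of all genes that passed in either direction went from 55 to 523. Without M2 and RM2 2 passed, and 0 passed with scaling by library totals or with activation state left out of the model. In these last 2 settings 3 and 0 of all genes passed.

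**Figure D3:**
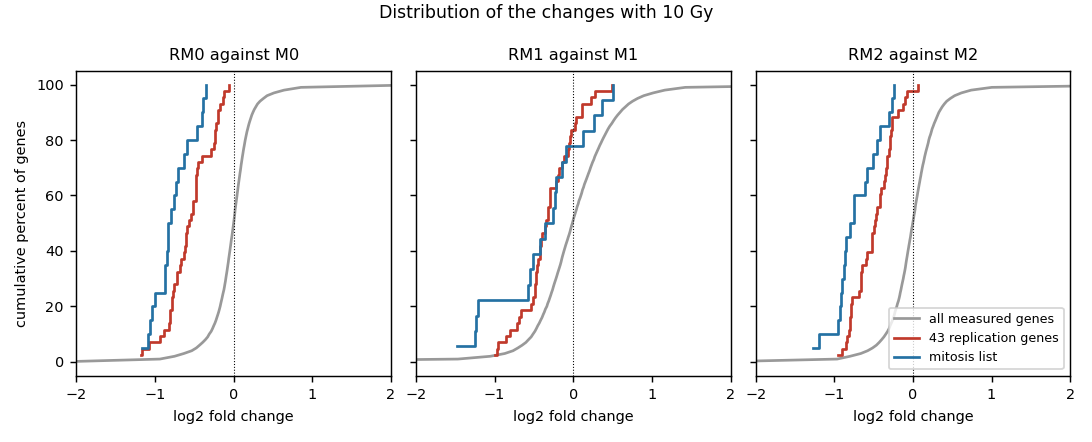
Cumulative percent of genes (vertical axis) against the log2 fold change with 10 Gy (horizontal axis) in each state, for all measured genes (grey), the 43 replication genes (red) and the mitosis list (blue). In M0 and M2 macrophages the red curve lies left of the grey one over nearly its whole range and the blue curve lies left of the red one over most of it, whereas in M1 macrophages the 3 curves lie closer together.

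Licensing genes were lower in all 3 states, 10 of 10, against 19.6% of all genes. The median of the 10 log2 fold changes was -0.61 in M0, -0.47 in M1 and -0.61 in M2 macrophages. Mcm5 (NM_008566, chr8:75109528-75128439, coordinates in GRCm38 as the tables give them), a helicase subunit, stood at 66.5 (M0) against 40.1 (RM0), 32.7 (M1) against 16.6 (RM1) and 64.3 (M2) against 34.4 (RM2), in scaled CPM. It was lower in each irradiated library than in its counterpart, by a log2 fold change of -0.73 (95% interval -0.86 to -0.60) in M0, -0.97 (95% interval -1.19 to -0.76) in M1 and -0.90 (95% interval -1.04 to -0.77) in M2 macrophages. Over the states it fell with a log2 fold change of -0.86 and an adjusted p of 0.00754 (edgeR), the smallest adjusted p among the 43 genes. Of 15 alternatives Mcm5 passed in 13, Mcm2 and Mcm6 in 10, Rpa2 in 9 and Mcm3 in 8, and Dut passed in 12 of 14. All 6 were lost with scaling by library totals and without activation state in the model. Mcm2, Mcm3, Mcm6 and Rpa2 were also lost without M2, RM2 or both, Mcm3 and Rpa2 without M0 and RM0, and Mcm3 with at least 100 counts in every library. Over the alternatives the log2 fold change was -0.94 to -0.81 for Mcm5, -0.84 to -0.80 for Dut and -0.80 to -0.63 for Mcm6. It was -0.62 to -0.56 for Mcm2, -0.82 to -0.65 for Rpa2 and -0.64 to -0.53 for Mcm3. Mcm6 (NM_008567, chr1:128331591-128359656) stood at 53.8 (M0) against 30.5 (RM0), 26.2 (M1) against 18.9 (RM1) and 61.8 (M2) against 36.2 (RM2) scaled CPM. Its changes were -0.82 in M0, -0.47 in M1 and -0.77 in M2 macrophages, and it fell over the states with a log2 fold change of -0.70 and an adjusted p of 0.022. Mcm2 (NM_008564, chr6:88883474-88898780), the helicase subunit with the highest level per length of transcript, stood at 98 (M0) against 64.7 (RM0), 41.2 (M1) against 28.4 (RM1) and 98.5 (M2) against 62.9 (RM2) scaled CPM. The decrease was of like size in the 3 states, at -0.60 in M0, -0.53 in M1 and -0.65 in M2 macrophages, and the test gave a log2 fold change of -0.60 and an adjusted p of 0.0266. Mcm3 (NM_008563, chr1:20803014-20820213) stood at 72.7 (M0) against 47.2 (RM0), 16.7 (M1) against 12.4 (RM1) and 72 (M2) against 45.5 (RM2) scaled CPM. It fell with a log2 fold change of -0.58 and an adjusted p of 0.0418, from changes of -0.62 in M0, -0.43 in M1 and -0.66 in M2 macrophages.

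The remaining helicase subunits did not pass the test over states. Mcm4 stood at 48.8 (M0) against 34.2 (RM0), 27.5 (M1) against 25.4 (RM1) and 59.1 (M2) against 39.5 (RM2) scaled CPM, and in M1 macrophages its change was -0.11 (95% interval -0.31 to 0.086), an interval that includes 0. Mcm7 stood at 50.3 (M0) against 36.7 (RM0), 11.8 (M1) against 10.7 (RM1) and 48.3 (M2) against 33.8 (RM2) scaled CPM, with changes of -0.45 in M0, -0.14 in M1 and -0.52 in M2 macrophages. Of the 100-base stretches of the longest Mcm7 transcript 7.16% are shared with Gm5487, so its counts may hold a part that belongs to that copy. Among the loading factors, Cdt1 stood at 79.3 (M0) against 67.5 (RM0), 88.5 (M1) against 53.7 (RM1) and 72.2 (M2) against 54 (RM2) scaled CPM. Its change was furthest from 0 in M1 macrophages and nearest in M0, at -0.23 in M0, -0.72 in M1 and -0.42 in M2 macrophages. Cdc6 stood at 14.4 (M0) against 8.37 (RM0), 2.91 (M1) against 1.62 (RM1) and 14.1 (M2) against 8.17 (RM2) scaled CPM, so that only 43 counts in M1 and 27 in RM1 lie behind its change there, and its changes were -0.77 in M0, -0.80 in M1 and -0.79 in M2 macrophages. The adjusted p of Cdc6 over the states was 0.0582, just outside the threshold. Of the origin recognition complex, Orc1 stood at 8.17 (M0) against 4.7 (RM0), 11.5 (M1) against 8.34 (RM1) and 7.64 (M2) against 6.2 (RM2) scaled CPM and Orc6 at 15.4 (M0) against 10.7 (RM0), 6.36 (M1) against 5.16 (RM1) and 16.8 (M2) against 14.6 (RM2). Both had changes closer to 0 in M2 than in M0 macrophages, Orc1 at -0.30 against -0.78 and Orc6 at -0.20 against -0.52, with intervals that include 0 in M2.

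Because E2F factors are the classical regulators of licensing genes, the promoter windows of the 43 genes (250 bases before to 50 bases after the RefSeq start, GRCm38.p6) were searched on both strands for the E2F letters TTTCCCGC, TTTGGCGC, TTTCGCGC and TTTGCCGC. A window was found for 36 of the 43 genes. At least 1 match was present in 14 of the 36 (38.9%), against 2.6% of 27025 genes with a window and 4.94% of 8707 such genes that were measured here. A shorter spelling (TTCCCGC and TTGGCGC), which the longer ones partly contain, matched 20 of 36 (55.6%, against 14.6% of measured genes). CCAAT boxes matched 25 of 36 (69.4%, against 43.6%), and the CHR letters TTTGAA and TTCGAA, known from mitotic promoters, matched 7 of 36 (19.4%, against 16.5%), compared with 13 of 17 promoters of the mitosis list (76.5%). The changes with irradiation were similar with and without the longer E2F letters: in RM0 the median was -0.62 over 14 genes with a match and -0.55 over 22 without, in RM1 it was -0.42 and -0.31, and in RM2 it was -0.49 in both sets. The 180 bases before the start are given below for 4 genes, chosen to show 2 that fell and hold matches, 1 that fell without a match and 1 that holds a match and did not fall. Capitals mark the E2F letters, and overlapping matches run together.
Mcm5: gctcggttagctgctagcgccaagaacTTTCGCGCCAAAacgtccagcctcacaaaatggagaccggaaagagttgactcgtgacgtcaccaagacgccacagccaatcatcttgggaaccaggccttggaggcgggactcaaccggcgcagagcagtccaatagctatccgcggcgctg
Mcm6: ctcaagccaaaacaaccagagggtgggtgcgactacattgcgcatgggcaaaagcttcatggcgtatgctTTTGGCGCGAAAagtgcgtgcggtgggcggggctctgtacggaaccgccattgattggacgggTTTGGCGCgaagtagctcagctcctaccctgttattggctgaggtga
Mcm2: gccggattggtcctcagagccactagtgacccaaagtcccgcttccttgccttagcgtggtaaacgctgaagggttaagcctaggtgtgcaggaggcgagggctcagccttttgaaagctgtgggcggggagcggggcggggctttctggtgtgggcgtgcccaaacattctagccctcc
Gins3: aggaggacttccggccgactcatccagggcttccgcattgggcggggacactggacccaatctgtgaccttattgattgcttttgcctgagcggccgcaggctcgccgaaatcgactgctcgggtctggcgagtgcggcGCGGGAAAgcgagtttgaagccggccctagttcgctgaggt
The Mcm5 stretch (chr8:75109329-75109508 on the plus strand) holds 2 overlapping matches on opposite strands. In Mcm6 (chr1:128359706-128359885 on the minus strand) there are 3, of which 2 overlap. Mcm2 (chr6:88898781-88898960 on the minus strand) has none, and it fell. Gins3 (chr8:95633379-95633558 on the plus strand) has 1, and its estimate over the states was -0.07 with an adjusted p of 0.811 (edgeR). A match of letters is a description of the window and not evidence of binding.

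Helicase activation genes differed among themselves. In RM0 all 6 genes were lower (50.2% of all genes) with a median of -0.69, and in RM2 5 of 6 were lower (50.4%) with a median of -0.59. In RM1, however, the median was -0.17, 4 of 6 intervals included 0 and 2 lay below 0 (30.4% of all genes). Mcm10, which helps to switch on the loaded helicase, stood at 11.9 (M0) against 6.18 (RM0), 1.49 (M1) against 1.62 (RM1) and 14 (M2) against 7.21 (RM2) scaled CPM. Its changes were -0.93 in M0, 0.11 in M1 and -0.95 in M2 macrophages, and those in M1 macrophages rest on 22 and 27 counts. Cdc45, which joins the active helicase, stood at 22.2 (M0) against 13.4 (RM0), 5.48 (M1) against 4.14 (RM1) and 22.5 (M2) against 12.8 (RM2) scaled CPM, with changes of -0.72 in M0, -0.40 in M1 and -0.81 in M2 macrophages and an adjusted p of 0.0611 over the states (edgeR). The 4 GINS subunits, which act as a single complex, had unlike changes. Gins1 stood at 6.15 (M0) against 2.86 (RM0), 3.18 (M1) against 3.12 (RM1) and 6.21 (M2) against 4.94 (RM2) scaled CPM, and it was 2-fold lower in RM0 at -1.08 (95% interval -1.59 to -0.64) but -0.027 in M1 macrophages. Gins2 stood at 9.53 (M0) against 5.97 (RM0), 7.3 (M1) against 3.72 (RM1) and 10.9 (M2) against 6.1 (RM2) scaled CPM and had changes of -0.66 in M0, -0.95 in M1 and -0.83 in M2 macrophages, with an adjusted p of 0.0582 (edgeR). Gins3 stood at 16.4 (M0) against 14 (RM0), 22.5 (M1) against 21.7 (RM1) and 17.7 (M2) against 18.5 (RM2) scaled CPM and Gins4 at 19.3 (M0) against 16.8 (RM0), 20.4 (M1) against 16.6 (RM1) and 19.4 (M2) against 15.1 (RM2). All 3 intervals of Gins3 included 0, at -0.23 in M0, -0.053 in M1 and 0.063 in M2 macrophages, and Gins4 had -0.20 in M0, -0.29 in M1 and -0.36 in M2 macrophages.

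Genes of the sliding clamp and its loader had medians of -0.47 in RM0, -0.40 in RM1 and -0.30 in RM2. Pcna, the clamp that tethers polymerases to DNA, had the highest level of the 43 genes per length of transcript in every library, and stood at 113 (M0) against 81.9 (RM0), 83.1 (M1) against 66.7 (RM1) and 133 (M2) against 110.1 (RM2) scaled CPM. It was lower in all 3 irradiated libraries at -0.47 in M0, -0.32 in M1 and -0.27 in M2 macrophages, each with an interval below 0, and its adjusted p over the states was 0.16 (edgeR). Of its transcript 17.76% of the 100-base stretches are shared with the pseudogene Pcna-ps2, so its level carries that uncertainty. Rfc1, the large subunit of the loader, stood at 62.7 (M0) against 52.8 (RM0), 44.6 (M1) against 53.8 (RM1) and 62.8 (M2) against 58.8 (RM2) scaled CPM. It was lower after irradiation in M0 at -0.25 (95% interval -0.37 to -0.13) and higher in M1 macrophages at 0.27 (95% interval 0.12 to 0.42). Rfc2 stood at 24.4 (M0) against 23.4 (RM0), 28.3 (M1) against 20.2 (RM1) and 22.7 (M2) against 18.1 (RM2) scaled CPM and Rfc3 at 12.6 (M0) against 9.03 (RM0), 18.1 (M1) against 11.2 (RM1) and 12.8 (M2) against 12.2 (RM2). Their changes did not follow those of Rfc1, being -0.056 in M0, -0.49 in M1 and -0.33 in M2 macrophages for Rfc2 and -0.48 in M0, -0.69 in M1 and -0.071 in M2 macrophages for Rfc3. Rfc4 and Rfc5 had changes from -0.80 (Rfc5 in M2) to 0.029 (Rfc4 in M1 macrophages).

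Among polymerases and primase, 17 of the 18 log2 fold changes with irradiation were below 0. Of all genes 50.2% (RM0), 51.3% (RM1) and 50.4% (RM2) were lower. Median changes stood at -0.51 (RM0), -0.38 (RM1) and -0.35 (RM2). The test over states passed 0 of these 6 genes, where 0.13% of all genes fell. At an unadjusted p under 0.05 4 of the 6 were lower, beside 6.87% of all genes (edgeR). Prim1, the catalytic subunit of primase, stood at 8.82 (M0) against 3.83 (RM0), 1.76 (M1) against 1.26 (RM1) and 8.53 (M2) against 6.4 (RM2) scaled CPM. Its log2 fold change in RM0 was the lowest of the 43 genes, -1.18 (95% interval -1.61 to -0.81), whereas in M2 macrophages the change was -0.41 (95% interval -0.76 to -0.075). Prim2, the other primase subunit, stood at 30.4 (M0) against 23 (RM0), 17.4 (M1) against 18.9 (RM1) and 28.3 (M2) against 23.3 (RM2) scaled CPM, with -0.40 in M0, 0.11 in M1 and -0.28 in M2 macrophages. Pole, the catalytic subunit of the leading-strand polymerase, stood at 16.1 (M0) against 9.95 (RM0), 2.43 (M1) against 1.5 (RM1) and 16.9 (M2) against 11.7 (RM2) scaled CPM and had -0.69 in M0, -0.66 in M1 and -0.52 in M2 macrophages. Pold1, that of the lagging-strand polymerase, stood at 26.3 (M0) against 22.3 (RM0), 15.2 (M1) against 12.1 (RM1) and 28.9 (M2) against 18 (RM2) scaled CPM, and its change was furthest from 0 in M2 macrophages, at -0.24 in M0, -0.33 in M1 and -0.68 in M2 macrophages. The listed coordinates of Pold1 cover 65.26% of the RefSeq gene. Pola2, an accessory subunit of the polymerase that extends primers, stood at 40.2 (M0) against 36.6 (RM0), 29.3 (M1) against 25.7 (RM1) and 38.4 (M2) against 31.1 (RM2) scaled CPM with changes of -0.13 in M0, -0.19 in M1 and -0.30 in M2 macrophages. Pola1, its catalytic partner, had -0.61 in M0, -0.42 in M1 and -0.29 in M2 macrophages.

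Of the single-strand binding and flap removal genes, Rpa2 was the 1 that fell in the test over states (0.13% of all genes). RPA is a trimer of Rpa1, Rpa2 and Rpa3 that coats unwound DNA. Rpa2 (NM_011284, chr4:132768360-132778746) stood at 22.1 (M0) against 12.9 (RM0), 14.5 (M1) against 10.1 (RM1) and 23 (M2) against 12.7 (RM2) scaled CPM. Its changes were -0.78 in M0, -0.51 in M1 and -0.85 in M2 macrophages, and over the states it fell with a log2 fold change of -0.73 and an adjusted p of 0.039 (edgeR). Rpa1, the DNA-binding large subunit, stood at 78.8 (M0) against 64.5 (RM0), 68.7 (M1) against 58.8 (RM1) and 82.9 (M2) against 65.6 (RM2) scaled CPM and was lower by less, at -0.29 in M0, -0.22 in M1 and -0.34 in M2 macrophages. Rpa3 stood at 10.3 (M0) against 9.19 (RM0), 5.34 (M1) against 7.56 (RM1) and 10.6 (M2) against 8.77 (RM2) scaled CPM and was the gene with the highest change of the 43 in M1 macrophages, 0.49 (95% interval 0.083 to 0.92), with intervals that include 0 in M0 and M2. Whether the 3 subunits of the trimer differed in M1 macrophages was not tested. Fen1, which removes flaps between Okazaki fragments, stood at 24 (M0) against 20.8 (RM0), 20.1 (M1) against 16.3 (RM1) and 23.9 (M2) against 17.1 (RM2) scaled CPM, with -0.20 in M0, -0.30 in M1 and -0.48 in M2 macrophages.

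Nucleotide supply genes were lower in all 3 states, 5 of 5, where 19.6% of all genes were. Their medians were -0.81 in RM0, -0.35 in RM1 and -0.66 in RM2. Dut (NM_001159646, chr2:125247248-125259049), which breaks down dUTP so that uracil is kept out of DNA, stood at 29.1 (M0) against 16.5 (RM0), 10.6 (M1) against 5.76 (RM1) and 33.6 (M2) against 19.3 (RM2) scaled CPM. The change was nearly the same in the 3 states, -0.81 in M0, -0.86 in M1 and -0.80 in M2 macrophages, and over them Dut fell with a log2 fold change of -0.83 and an adjusted p of 0.0146 (edgeR). Tk1, a thymidine kinase that peaks in S phase, stood at 11.2 (M0) against 6.02 (RM0), 3.92 (M1) against 1.92 (RM1) and 10.3 (M2) against 5.9 (RM2) scaled CPM. Its changes were -0.88 in M0, -0.99 in M1 and -0.79 in M2 macrophages, but only 58 and 32 counts were compared in M1 macrophages and the adjusted p was 0.0518. Rrm2, the subunit of ribonucleotide reductase that varies through the cell cycle, stood at 36.2 (M0) against 20.6 (RM0), 10.4 (M1) against 9.06 (RM1) and 38.5 (M2) against 26.8 (RM2) scaled CPM, and Rrm1, the more stable subunit, at 58.5 (M0) against 41.8 (RM0), 38.1 (M1) against 37 (RM1) and 61.1 (M2) against 47.3 (RM2). Both were lower in RM0 and RM2 than in their counterparts but had intervals that include 0 in M1 macrophages, with -0.81 in M0, -0.20 in M1 and -0.52 in M2 macrophages for Rrm2 and -0.48 in M0, -0.041 in M1 and -0.37 in M2 macrophages for Rrm1. Tyms, which makes dTMP, stood at 11.7 (M0) against 8.42 (RM0), 9.33 (M1) against 7.32 (RM1) and 13.8 (M2) against 8.67 (RM2) scaled CPM and had -0.48 in M0, -0.35 in M1 and -0.66 in M2 macrophages. The listed coordinates of Tyms cover 43.95% of the RefSeq gene.

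The fork checkpoint and histone mRNA step holds 2 genes, whose medians were -0.89 in RM0, 0.079 in RM1 and -0.36 in RM2. Clspn encodes claspin, which relays stalled-fork signals, and stood at 13.7 (M0) against 6.02 (RM0), 4.46 (M1) against 4.26 (RM1) and 13.8 (M2) against 9.02 (RM2) scaled CPM. It was 2-fold lower in RM0 at -1.17 (95% interval -1.51 to -0.86), -0.60 in M2 and -0.066 (95% interval -0.57 to 0.44) in M1 macrophages. Slbp, which binds the stem-loop of histone mRNAs, stood at 33.4 (M0) against 21.8 (RM0), 16.4 (M1) against 19.1 (RM1) and 31.9 (M2) against 29.3 (RM2) scaled CPM and had -0.61 in M0, 0.22 in M1 and -0.12 in M2 macrophages. In the test of a different irradiation effect in M1 macrophages, added after the data were seen, Slbp had the lowest adjusted p of the 43, 0.0613, and Clspn had 0.0981 (edgeR).

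All 4 chromatin assembly and DNA methylation genes had intervals below 0 in RM0 (14.8% of all genes) and RM2 (19.5%). Their median changes stood at -0.59 (RM0), -0.39 (RM1) and -0.47 (RM2). The test over states passed 0 of these 4, where 0.13% of all genes fell. At an unadjusted p under 0.05 3 of the 4 were lower, beside 6.87% of all genes (edgeR). Uhrf1, which recruits Dnmt1 to newly copied DNA, stood at 42.4 (M0) against 27.3 (RM0), 20.9 (M1) against 16.3 (RM1) and 38.9 (M2) against 28.3 (RM2) scaled CPM, with -0.63 in M0, -0.36 in M1 and -0.46 in M2 macrophages and an adjusted p of 0.0794. Of its transcript 7.055% of the 100-base stretches are shared with Gm5648. Dnmt1, the maintenance DNA methyltransferase, stood at 76.7 (M0) against 70.3 (RM0), 80.5 (M1) against 81.6 (RM1) and 82.6 (M2) against 61.8 (RM2) scaled CPM. Its change was furthest from 0 in M2 macrophages, at -0.13 in M0, 0.02 in M1 and -0.42 in M2 macrophages. Chaf1b, a subunit of the chromatin assembly factor that deposits histones behind the fork, stood at 20.8 (M0) against 12.3 (RM0), 11 (M1) against 8.22 (RM1) and 17.3 (M2) against 12.4 (RM2) scaled CPM and had -0.75 in M0, -0.41 in M1 and -0.47 in M2 macrophages. Chaf1a, the large subunit of that factor, had -0.54 in M0, -0.47 in M1 and -0.66 in M2 macrophages, all 3 with intervals below 0.

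Whether irradiation acted differently in M1 macrophages was tested with an added term in the same edgeR model, which leaves 1 residual degree of freedom. Of the 43 genes 0 passed at an adjusted p under 0.05. Among all genes 4.61% passed with a lower and 4.05% with a higher log2 fold change with irradiation in M1 macrophages. No other tool was run for this term. At an unadjusted p under 0.05 8 genes had a higher log2 fold change in M1 macrophages, Slbp, Clspn, Rpa3, Rfc1, Mcm10, Mcm4, Prim2 and Rrm1. Cdt1 had a lower one (11.2% and 11.9% of all genes). For Clspn, Mcm4 and Rrm1 the higher value was a smaller decrease, and for the others it was above 0. With this term in the model, 32 of the 43 fell with irradiation in M0 and M2 macrophages, against 2.29% of all genes. Over the 43 genes Spearman's rho between the irradiation changes was 0.488 for M0 and M2, 0.482 for M1 and M2 and 0.334 for M0 and M1 macrophages, where it was 0.275, 0.441 and 0.0602 over all measured genes. These pairs share no library, and the genes share depth and scaling within a library.

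Polarization to M1 was accompanied by lower levels of most replication genes. The median difference was larger than after irradiation of M0 macrophages in M1 against M0 and about as large in RM1 against RM0. In M1 against M0 36 of the 43 genes were lower (51.2% of all genes), 20 of them at least 2-fold (13.3%) and 28 at least 1.5-fold (24.6%), with a median log2 fold change of -0.93, and 7 were higher (48.8%). Counting intervals lay below 0 for 35 (37.6%) and above 0 for 5 (37.7%). After irradiation, in RM1 against RM0, 37 were lower (50.5%), 14 of them at least 2-fold (7.87%) and 20 at least 1.5-fold (17.9%), with a median of -0.51, and Orc1 and Gins3 were 1.5-fold higher (14.7%). Intervals lay below 0 for 32 (33.6%) and above 0 for 4 (35.3%). Scaled by library totals the median in M1 against M0 was -1.36, beside -0.462 for all genes. The edgeR test over both doses found 29 of the 43 lower in M1 macrophages (24.3% of all genes) and 2 higher, Orc1 and Gins3 (23.3%). With scaling by library totals 0 of the 43 were higher.

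Among the 43 genes Mcm3 came first by adjusted p, with a log2 fold change of -2.02 and an adjusted p of 2.05e-06. Its level of 72.7 scaled CPM in M0 stood beside 16.7 in M1, and 47.2 in RM0 beside 12.4 in RM1. Mcm7 followed with a log2 fold change of -1.93 and an adjusted p of 4.4e-06, then Pole with a log2 fold change of -2.72 and an adjusted p of 5.23e-06. Cdc6 fell with a log2 fold change of -2.33 and an adjusted p of 1.59e-05 and Cdc45 with a log2 fold change of -1.86 and an adjusted p of 2.37e-05. These 5 genes belong to the loading, activation and synthesis steps, and in each of them both M1 libraries lay below all 4 other libraries. In M1 against M0 the lowest values were those of Mcm10 at -2.91 (95% interval -3.70 to -2.37), Pole at -2.67 (95% interval -3.26 to -2.22) and Cdc6 at -2.26 (95% interval -2.80 to -1.84). In RM1 against RM0 Pole, Cdc6 and Mcm3 were the lowest at -2.65, -2.30 and -1.92. The highest in M1 against M0 were Rfc3 at 0.52 (95% interval 0.27 to 0.78), Orc1 at 0.49 (95% interval 0.17 to 0.81) and Gins3 at 0.45 (95% interval 0.23 to 0.68), and the same 3 genes were highest in RM1 against RM0 at 0.31, 0.81 and 0.63.

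By step, the medians in M1 against M0 were -1.46 for nucleotide supply, -1.31 for Clspn and Slbp, -1.14 for licensing, -0.97 for polymerases and primase, -0.65 for helicase activation, -0.50 for chromatin assembly and DNA methylation, -0.47 for the clamp and its loader and -0.43 for single-strand binding and flap removal. In RM1 against RM0 the same steps stood at -1.18, -0.34, -1.11, -0.92, -0.34, -0.29, -0.25 and -0.31. No difference between these pairs was tested by step. Within complexes the changes were uneven. Of the helicase subunits Mcm3 and Mcm7 had -2.11 and -2.08 in M1 against M0, whereas Mcm4 had -0.83, Mcm5 -1.02, Mcm6 -1.03 and Mcm2 -1.25. Cdt1, which helps to load these subunits, was 0.16 with TMM scaling and -0.28 with library totals. Prim1 had -2.26 and its partner Prim2 -0.80, and of the catalytic polymerase subunits Pole had -2.67, Pola1 -1.15 and Pold1 -0.79. Over the 43 genes Spearman's rho between M1 against M0 and RM1 against RM0, which share no library, was 0.865 (0.786 over all genes).

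**Figure D4:**
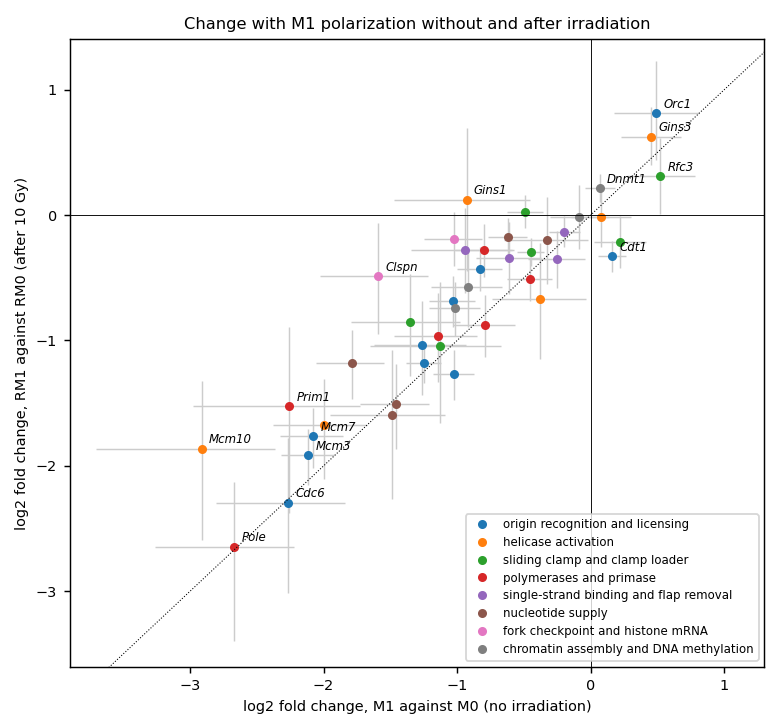
Log2 fold change of each of the 43 genes in M1 against M0 (horizontal) and in RM1 against RM0 (vertical), colored by step, with grey lines for the exact 95% counting intervals and a dotted line of equal change. Most points lie below 0 on both axes, Pole and Cdc6 near the dotted line and Mcm10, Prim1 and Clspn above it, while Orc1, Gins3 and Rfc3 lie above 0 on both.

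Markers of other cell types were low, with exceptions. Of these, S100a8 and Dcn were higher in the M1 libraries and, by less, after irradiation, except for Dcn in M1 macrophages. There its scaled log2 fold change with irradiation was 0.038, with an interval that includes 0. Of 5 granulocyte markers S100a8 alone was abundant, with 4580 (M0) against 6667 (RM0), 32464 (M1) against 51228 (RM1) and 2846 (M2) against 3492 (RM2) counts, while Elane had at most 1 count and Mpo at most 3. S100a8 is also known to be induced in activated macrophages. Of 5 fibroblast markers Dcn had 113 (M0) against 145 (RM0), 627 (M1) against 726 (RM1) and 114 (M2) against 177 (RM2) counts, whereas Col1a2 and Col3a1 had 0 in all 6 libraries. Of 5 endothelial markers Vwf was the most abundant with 39 to 83 counts, and of 6 T cell markers Lck had 178 to 243. Vwf had 74 (M0) against 83 (RM0), 39 (M1) against 59 (RM1) and 74 (M2) against 61 (RM2) counts. Lck had 243 (M0) against 232 (RM0), 213 (M1) against 178 (RM1) and 225 (M2) against 237 (RM2). The erythroid markers Hbb-bt and Hbb-bs were at 0 in all libraries. The summed granulocyte list was 231 scaled CPM in M0 and 341 in RM0 against 2196 in M1 and 3074 in RM1. In the main edgeR test of irradiation over the 3 states neither passed. S100a8 had a log2 fold change of 0.46 (adjusted p of 0.132) and Dcn 0.32 (adjusted p of 0.338). In the edgeR model with the M1 term, added after the data were seen, both rose with irradiation of M0 and M2 macrophages. There S100a8 had a log2 fold change of 0.44 (adjusted p of 0.000157) and Dcn 0.53 (adjusted p of 0.0216). The endothelial marker Pecam1 had counts of 11 (M0) against 25 (RM0), 23 (M1) against 40 (RM1) and 35 (M2) against 47 (RM2). The part of these genes in the M1 and irradiation differences of the replication genes was not tested.

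Polarization to M2 was accompanied by small differences in these genes, none of which passed the test. In M2 against M0 15 of the 43 were lower (51.0% of all genes) and 28 higher (5759 of all 11762 genes measured), with a median of 0.024. None differed 1.5-fold, as 1.77% of all genes did on the lower and 3.18% on the higher side. Counting intervals lay below 0 for 2 (16.4%) and above 0 for 5 (12.8%). Scaled by library totals, which shifted the median of all genes by 0.06 (log2), 9 were lower. The widest differences were 0.28 (95% interval 0.15 to 0.40) for Mcm4, 0.23 (95% interval -0.019 to 0.49) for Mcm10 and 0.23 for Tyms among the higher, and -0.27 (95% interval -0.48 to -0.062) for Chaf1b, -0.14 for Cdt1 and -0.13 for Tk1 among the lower. In the edgeR test over both doses 0 of 43 genes passed (0.0346% of all genes were lower and 0.156% higher), as with DESeq2. At an unadjusted p under 0.05 Pcna alone was found, at 0.33 with an adjusted p of 0.463, beside 5.71% of all genes on the higher side. Without M1, RM1 or both libraries Pcna passed this test on the higher side, when the number of all genes that passed in either direction went from 22 to between 1327 and 1392. In RM2 against RM0 17 of the 43 were lower (50.3%) and the median was 0.041, with intervals below 0 for 7 (26.6%) and above 0 for 15 (26.5%). Gins1 at 0.77 (95% interval 0.30 to 1.29) and Prim1 at 0.73 (95% interval 0.32 to 1.17) were more than 1.5-fold higher (6.43% of all genes), followed by Clspn at 0.57 (95% interval 0.24 to 0.93), and these are the 3 genes that were at least 2-fold lower in RM0 than in M0. Those comparisons share the RM0 library. Rfc2 at -0.37, Cdt1 at -0.32 and Pold1 at -0.30 were the lowest. Across genes, which are not independent replicates, Spearman's rho between the log2 fold change and the GC content of the transcript was -0.63 in RM2 against RM0, -0.38 in RM1 against M1, -0.372 in RM2 against M2, -0.362 in M2 against M0, -0.249 in RM1 against RM0, 0.229 in RM0 against M0 and 0.0717 in M1 against M0. With this trend removed Pold1 (0.014) and Rrm1 (-0.055) changed sign in RM2 against RM0, and the medians of the 43 genes were -0.56 in RM0, -0.38 in RM1 and -0.50 in RM2 against their counterparts and -0.85 in M1 against M0.

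Levels of the 43 genes were compared with each other only per kilobase of the longest transcript, as RPKM, the scaled CPM divided by that length. Pcna was highest with a mean of 64.5 RPKM over the 6 libraries, followed by Cdt1 with 25.7 and Mcm2 with 18.8. Rfc5 with 1.33, Pole with 1.36 and Mcm10 with 1.45 were the lowest. The helicase subunits, which assemble in equal numbers, were within 2.27-fold of each other in M0, from 12.4 RPKM for Mcm6 to 28.1 for Mcm2, and within 2.95-fold in M1, from 4.00 for Mcm7 to 11.8 for Mcm2. The GINS subunits ranged more widely, 5.86-fold in M0 and 12.9-fold in RM1, with Gins2 lowest and Gins4 highest in all 6 libraries. The range of the clamp loader subunits was wider still, 6.72-fold in M0 and 18.2-fold in RM1, with Rfc5 lowest and Rfc1 highest in all 6 libraries. Such ratios depend on the transcript chosen for the length.

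Other genes of the same pathway had medians nearer to 0 after irradiation. Of 32 other replication factors 29 were lower in RM0 (50.2% of all genes), 24 in RM2 (50.4%) and 17 of 30 measured in RM1 (51.3%), with medians of -0.32, -0.23 and -0.051. In the edgeR test of irradiation 0 of 32 passed, with 10 lower at an unadjusted p under 0.05 (6.87% of all genes). Pclaf, a partner of PCNA, was lowest in RM0 at -1.29, with counts of 345 (M0) against 138 (RM0), 21 (M1) against 15 (RM1) and 401 (M2) against 269 (RM2). Chtf18, a subunit of an alternative clamp loader, was lowest in RM2 at -1.02, with 97 (M0) against 46 (RM0), 7 (M1) against 1 (RM1) and 110 (M2) against 52 (RM2). Recql4 was lowest in RM1 at -1.17, and Dna2, a nuclease, was highest there at 0.68. The 8 other nucleotide supply genes had medians of -0.29 in RM0, -0.32 in RM1 and -0.20 in RM2. Rrm2b, a ribonucleotide reductase subunit known as a p53 target, had -0.20 in M0, 0.72 in M1 and 0.32 in M2 macrophages. The 11 other chromatin assembly genes had medians of -0.25 in RM0, -0.0034 in RM1 and -0.25 in RM2, with Asf1b, a histone chaperone, at -0.79, -0.76 and -0.58.

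Regulators of S phase entry and genes of the next phase were examined alongside. Of 18 E2F and S phase entry genes 15 had a lower value in RM0 (50.2% of all genes), 14 in RM2 (50.4%) and 9 of 17 measured in RM1 (51.3%), with medians of -0.26, -0.26 and -0.077, and 0 of 18 passed the irradiation test (at an unadjusted p under 0.05 6 were lower, as 6.87% of all genes, and 2 higher, as 7.88%, edgeR). Ccna2, the S phase cyclin, was lower in the 3 states at -0.86, -0.41 and -0.96, whereas Ccne2, a cyclin of S phase entry, had -0.80, 1.46 and -0.50, on counts of 148 (M0) against 83 (RM0), 9 (M1) against 31 (RM1) and 220 (M2) against 151 (RM2). E2f7, a repressor, was lowest in RM0 at -1.67. The 20 mitotic genes were all lower after irradiation in M0 (50.2% of all genes) and in M2 macrophages (50.4%), as were 14 of 18 measured in M1 (51.3%). Their medians were -0.81, -0.78 and -0.31. Cdc20 and Ube2c, which act in the anaphase-promoting pathway, fell over the states with an adjusted p of 0.0217 and 0.0266 (edgeR), with counts for Cdc20 of 166 (M0) against 79 (RM0), 48 (M1) against 22 (RM1) and 226 (M2) against 95 (RM2). The mitotic median lay below that of the replication genes in RM0 and RM2. In M1 against M0 the order was the other way, with -0.67 for the mitotic and -0.93 for the replication genes, and in RM1 against RM0 the mitotic median was 0.044 while that of the replication genes was -0.51. None of these differences between lists was tested.

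Of 12 p53 targets, which act in arrest or, like Bax, Bbc3 and Fas, in apoptosis, 8 were higher after irradiation in all 3 states (19.5% of all genes), with medians of 0.27 in M0, 0.36 in M1 and 0.22 in M2 macrophages. In RM1 Bbc3 at -0.53, Fas at -0.33 and Bax at -0.13 were the 3 below 0, and in RM2 Bbc3 at -0.21, Bax at -0.17 and Gadd45a at -0.086 were. Ccng1 rose over the states with an adjusted p of 0.0146 (edgeR), and was the 1 gene of the list to pass (0.346% of all genes rose). It had counts of 2437 (M0) against 3647 (RM0), 2332 (M1) against 5611 (RM1) and 2710 (M2) against 4416 (RM2), higher in each irradiated library. Cdkn1a, which encodes the inhibitor p21, had counts of 11704 (M0) against 15258 (RM0), 18089 (M1) against 21973 (RM1) and 11102 (M2) against 11324 (RM2). Its changes with irradiation were 0.40 in M0, 0.11 in M1 and 0.06 in M2 macrophages with an adjusted p of 0.472, and it was higher in M1 than in M0 by 1.05. Phlda3 at 1.58 and Btg2 at 1.35 had the highest changes of the list in M1 macrophages.

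**Figure D5:**
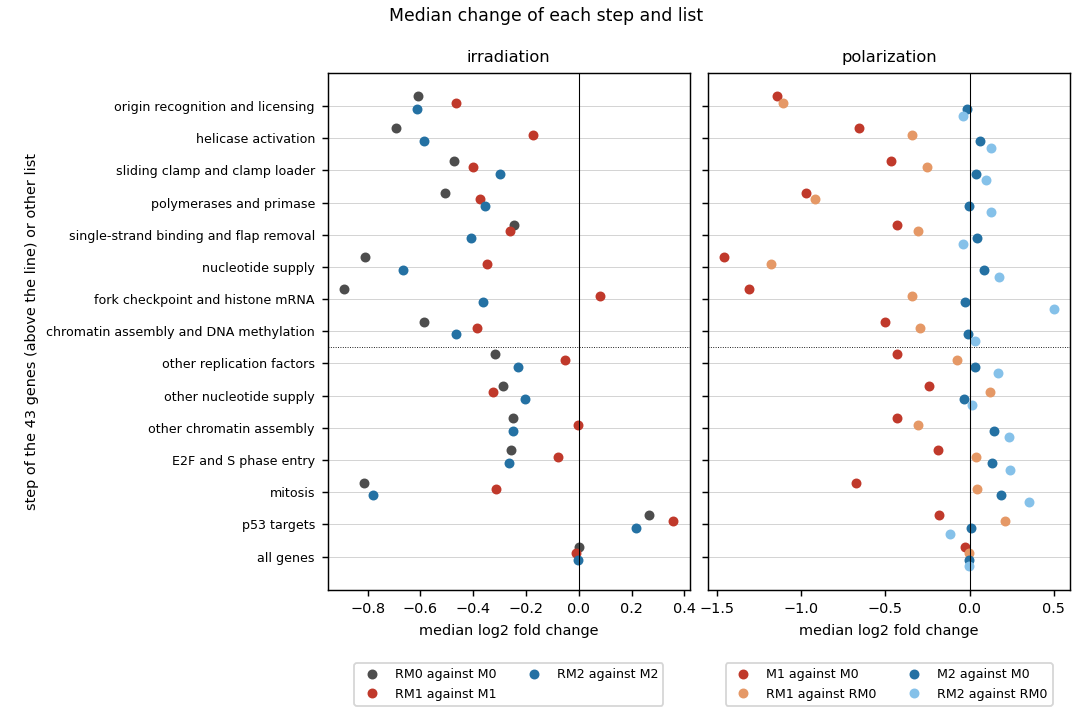
Median log2 fold change of the genes of each step (above the dotted line) and of 6 other lists and all genes (below it, marker lists not drawn) for irradiation in the 3 states (left) and for polarization at both doses (right). In the left panel the M0 and M2 points of mitosis lie at -0.81 and -0.78 and those of nucleotide supply at -0.81 and -0.66, and all 3 points of the p53 targets lie above 0, while in the right panel the M1 points lie left of the M2 points in all 8 steps at both doses.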

How the data were processed

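RNA was sequenced from 6 RAW264.7 libraries, 1 for each of M0, M1, M2, RM0, RM1 and RM2. The deposited values are whole-number counts of reads per gene made by the authors with HTSeq, without normalization, and the submitters' processing notes also name Trimmomatic, HISAT2 and the mm10 build. Raw counts of 24062 genes were taken from the 6 tables. Of these, 27 carry date-like symbols in place of a gene symbol and could not be named, and 8137 genes were at 0 in every library. The members, lists and tests were chosen with earlier results of these data known, and no count of members is independent support for a pattern already seen.

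Counts were scaled with TMM in edgeR 4.0.16 (R 4.3.3). For each pair of libraries a log2 fold change with a prior count of 2 was computed for genes with at least 10 counts in 1 library, with an exact Clopper-Pearson 95% interval of the counts, which covers counting error only. Irradiation, M1 and M2 were tested with edgeR's quasi-likelihood test (state plus irradiation, on genes that reached 10 counts in 3 or more libraries, Benjamini-Hochberg adjusted p under 0.05). With 1 library per condition the spread behind the p-values is how far the irradiation changes differ between states, which may be technical. An added term allowed another irradiation effect in M1 macrophages, and then only the changes in M0 and M2 macrophages give this spread.

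Values in all libraries were given for the 2 members of each step with the highest mean count, the 3 highest and 3 lowest in each comparison (at least 50 counts in 1 library), members that passed the irradiation test and the 5 with the smallest p for M1 and M2. Genes of other lists were named as the 3 highest and 3 lowest or as passing a test, but Cdkn1a, S100a8, Dcn and other markers were named after their values were seen. Promoters came from RefSeq (GRCm38.p6). The alternatives were DESeq2 1.42.0, library totals, other thresholds and filters, removal of the GC trend and leaving out libraries.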

Additional observations from a re-analysis of the deposited data

Results flagged for a closer look

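Rfc1 had a log2 fold change with 10 Gy of -0.25 in M0 and 0.27 in M1 macrophages, opposite directions with counting intervals that exclude 0. In the added edgeR term, which sets M1 against M0 and M2 macrophages together, Rfc1 had an unadjusted p of 0.0163 and an adjusted p of 0.114. Cdt1 was 0.16 in M1 against M0 but -0.33 in RM1 against RM0, and Rfc2 was 0.22 and -0.21 in the same pairs. With scaling by library totals both were below 0 in M1 against M0 too, at -0.28 for Cdt1 and -0.22 for Rfc2. Dnmt1 was 0.11 in M2 against M0 and -0.19 in RM2 against RM0. In the added term Cdt1 had an unadjusted p of 0.0262 and an adjusted p of 0.149, and Rfc2 had 0.149 and 0.398. For Dnmt1 the difference between the M2 pairs was not tested. Each pair compares 1 library with 1 other, so that both directions have counting error as their only measure of spread.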

How the results depend on the processing

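The labels give no replicate numbers and each condition had 1 library, so no block of replicate numbers was fitted. Activation state, which matches each irradiated library to its counterpart, was a term of the irradiation test. The added term for M1 macrophages was chosen after seeing the data. The cause of the changes below was not tested, except where a threshold or filter itself changes the genes counted.

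At a 1.5-fold threshold 21 of the 43 replication genes were lower in RM0, 8 in RM1 and 16 in RM2 against their counterparts, and 2 were higher in RM1 against RM0 and in RM2 against RM0. At a 4-fold threshold 0 were lower in RM0, 6 in M1 against M0 and 2 in RM1 against RM0. In RM1 against M1 1 gene, Tk1, was 2-fold lower with DESeq2 size factors or a prior count of 0.25, and in RM2 against M2 1, Mcm10, was with library totals. With library totals the members' median was -1.36 for M1 against M0, where Cdt1 (-0.28) and Rfc2 (-0.22) turned negative, as did Dnmt1 (-0.034) in RM1 against RM0, and 9 members were lower in M2 against M0. With the GC trend removed Pold1 (0.014) and Rrm1 (-0.055) changed sign in RM2 against RM0.

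All genes called, at 1.5-fold and 4-fold, numbered 696 and 9 in RM0 against M0, 2036 and 84 in RM1 against M1, 848 and 12 in RM2 against M2, 582 and 10 in M2 against M0, 5268 and 653 in M1 against M0, 3816 and 340.0 in RM1 against RM0 and 1211 and 34 in RM2 against RM0. With at least 50 counts, and with no count minimum, they numbered 55 and 434 (RM0), 304 and 1229 (RM1), 67 and 510.0 (RM2 against M2), 38 and 427 (M2 against M0) and 104 and 598 (RM2 against RM0).

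For irradiation, 0 members passed with library totals or without activation state in the model, 11 without the count filter and 32 with the M1 term. Leaving out a library or a state gave 2 to 32, with 32 without M1, RM1 or both, 2 without M2, RM2 or both, 10 without M0 and 13 without RM0. Of all genes 115 passed with DESeq2, 3 with library totals, 134 without a filter, 23 with at least 100 counts in every library, 0 without activation state, 554 with the M1 term and 77 to 719 with a library or state left out. For M1, members higher numbered 1 with DESeq2, at least 100 counts or irradiation left out of the model, 0 with library totals, and 0 to 3 with a library or dose left out (0 without RM0), and members lower numbered 17 with at least 100 counts. For M2, all genes numbered 41 with DESeq2, 3 with library totals, 45 without a filter, 0 without irradiation in the model, and 19 to 1392 with a library or state left out (1327 without M1 and RM1, 1391 without M1, 1392 without RM1, 235 without M0 and 47 without M2). Members higher numbered 0 to 1, the 1 being Pcna without M1, RM1 or both. Low counts limit the precision of Mcm10, Cdc6, Prim1 and Pole in M1 and RM1. The filter of at least 100 counts in every library left out Mcm10 and Cdc6, among others. The 17 members lower in M1 with that filter are therefore not out of 43.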
